A study of Homo sapiens with 16 samples.

Results

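The genes described here are GINS1, GINS2, GINS3, GINS4, CDC45, CDC6, CDT1, GMNN, ORC1 and DTL, which encode the licensing, helicase-activating and licensing-control factors of DNA replication. They were chosen by name, and every probe set annotated with exactly 1 of these symbols was followed. All 10 genes had a value, of 19775 genes measured, and together they had 19 probe sets on the array. Unless stated otherwise, the values of a gene are those of its brightest probe set, by the mean over the 16 arrays.

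RNA was measured on 16 arrays in 4 groups of 4 independent biological replicates, lettered A to D. The groups were MCF10A cells on water as vehicle, MCF10A cells with 50 mM 2-deoxy-glucose (2DG), MDA-MB-231 cells on the same vehicle and MDA-MB-231 cells with 50 mM 2DG, each for 24 h in medium with 17.5 mM glucose. MCF10A is an immortalized, non-tumorigenic human mammary epithelial line and MDA-MB-231 a human breast cancer line; each group thus represents 1 established line in culture. 2DG is a glucose analogue that cells take up and phosphorylate but cannot carry through glycolysis, and it was used to ask how glucose metabolism affects gene expression in mammary cells. The media differed, per the labels' protocols: horse serum with insulin, EGF, cholera toxin and hydrocortisone was used for MCF10A, fetal bovine serum for MDA-MB-231, and the glutamine content was not the same. Line and medium cannot be told apart.

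As background, a replication origin is licensed when the origin recognition complex, with ORC1 as its largest subunit, and CDC6 and CDT1 load the MCM helicase onto DNA in G1. Geminin, encoded by GMNN, binds CDT1 and blocks its loading activity in S and G2. In S phase, CDC45 and the GINS complex, a tetramer of GINS1 to GINS4, join the loaded MCM ring to form the active CMG helicase. DTL, also called CDT2, is the receptor by which the CRL4 ubiquitin ligase recognises CDT1, p21 and the histone methyltransferase KMT5A bound to PCNA on chromatin, which lets the cell destroy CDT1 once replication has begun. Most of these genes are transcribed periodically, and E2F factors are known to act on many of their promoters.

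The promoter windows of the genes are shown because the genes moved together and because E2F sites are a known feature of such promoters. RefSeq windows of assembly GRCh38.p14, from 250 bases before to 50 bases after a gene's start, were found for 9 of the 10 genes, in 12 windows of 300 bases; GINS4 had no entry. The windows were searched on both strands for TTTCCCGC, TTTCGCGC, TTTGCCGC and TTTGGCGC, taken as 1 E2F motif. This motif lay in 7 of the 12 windows, those of GINS1, GINS2, GINS3, CDC6, CDT1, GMNN and DTL, against 3.3% of all 34796 distinct windows. A variant word, TTTGGCGG, was added after the windows had been seen. It lay in 4 of the 12 windows, of CDC45, CDC6, CDT1 and DTL, and in 0.652% of all windows. As the word was chosen with these windows in view, the comparison of these shares is no support for it. ORC1 held no exact match of these words, though its window holds attggcgc, which differs from TTTGGCGC in 1 letter. A selection of the windows follows, 5′ to 3′ on the gene's strand, with the E2F words and the variant in capitals. ORC1 is included as the window without an exact match.
DTL: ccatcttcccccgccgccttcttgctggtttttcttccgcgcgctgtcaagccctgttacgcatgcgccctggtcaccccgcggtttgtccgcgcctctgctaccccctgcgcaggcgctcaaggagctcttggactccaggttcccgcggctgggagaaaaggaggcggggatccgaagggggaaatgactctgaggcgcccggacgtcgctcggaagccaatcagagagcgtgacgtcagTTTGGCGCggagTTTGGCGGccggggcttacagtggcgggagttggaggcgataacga
CDT1: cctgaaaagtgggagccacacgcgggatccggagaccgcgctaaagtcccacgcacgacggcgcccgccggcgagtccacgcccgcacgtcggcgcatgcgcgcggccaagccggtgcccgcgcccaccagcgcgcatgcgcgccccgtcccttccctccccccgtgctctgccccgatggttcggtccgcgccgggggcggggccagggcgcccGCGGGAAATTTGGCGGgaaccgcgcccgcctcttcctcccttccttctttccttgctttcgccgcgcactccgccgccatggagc
CDC6: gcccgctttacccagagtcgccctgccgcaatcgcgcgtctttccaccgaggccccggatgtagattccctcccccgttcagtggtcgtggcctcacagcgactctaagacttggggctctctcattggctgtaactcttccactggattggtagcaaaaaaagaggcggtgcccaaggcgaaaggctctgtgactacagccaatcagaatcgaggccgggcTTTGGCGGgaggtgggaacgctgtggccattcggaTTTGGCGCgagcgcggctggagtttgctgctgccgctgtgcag
GINS2: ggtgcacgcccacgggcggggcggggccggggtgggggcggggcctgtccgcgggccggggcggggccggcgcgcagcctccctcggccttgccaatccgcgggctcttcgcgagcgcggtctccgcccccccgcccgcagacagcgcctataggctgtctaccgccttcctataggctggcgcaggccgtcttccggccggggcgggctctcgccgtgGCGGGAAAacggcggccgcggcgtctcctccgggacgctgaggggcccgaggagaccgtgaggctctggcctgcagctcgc
GINS3: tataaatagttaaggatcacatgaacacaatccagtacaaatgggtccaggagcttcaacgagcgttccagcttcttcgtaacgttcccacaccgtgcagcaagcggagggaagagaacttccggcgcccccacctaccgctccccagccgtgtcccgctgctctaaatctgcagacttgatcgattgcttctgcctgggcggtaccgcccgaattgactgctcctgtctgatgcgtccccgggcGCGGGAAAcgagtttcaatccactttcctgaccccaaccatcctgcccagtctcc
ORC1: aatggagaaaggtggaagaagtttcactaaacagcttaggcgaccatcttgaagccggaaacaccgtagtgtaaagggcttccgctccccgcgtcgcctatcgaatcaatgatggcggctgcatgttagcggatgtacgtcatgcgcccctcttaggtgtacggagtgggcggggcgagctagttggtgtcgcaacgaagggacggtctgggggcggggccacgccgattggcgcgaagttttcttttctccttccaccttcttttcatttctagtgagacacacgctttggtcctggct
They lie at chr1:212035498-212035797 (DTL, plus strand), chr16:88803539-88803838 (CDT1, plus), chr17:40287629-40287928 (CDC6, plus), chr16:85688905-85689204 (GINS2, minus), chr16:58392221-58392520 (GINS3, plus) and chr1:52404374-52404673 (ORC1, minus). Counted from the gene's start, the E2F word began at -8 and the variant at 5 in DTL. In CDC6 the E2F word began at 8 and the variant at -28. CDT1 carried both words side by side, the E2F word from -35 on the opposite strand and the variant from -27. The E2F word began at -31 in GINS2 and at -5 in GINS3, both on the opposite strand. Every word printed thus lay close to the start. The CHR words TTTGAA and TTCGAA, known from promoters of G2 and mitosis genes, lay in 0 of the 12 windows and in 16.4% of all windows. CCAAT lay in 8 of 12 windows against 34.6%, and the GC box GGGCGG in 10 of 12 against 44.9%. By gene, each lay in 7 of 9. Windows of CDC45 overlap in part, so the same site can count in more than 1 window. These are matches of letters in a fixed window and not measured binding sites.

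Before the results, a few facts of the arrays bear on the values. Array medians lay between 6.17 and 6.22 on the log2 scale, and no 2 arrays held identical values. RMA gives no call of signal over background and compresses small signals, so a fall to a value near the array median is likely to be understated. The actin 3'/5' control difference, a sign of RNA integrity in log2, averaged 0.393 ± 0.067 (SD, n = 4) in untreated and 0.55 ± 0.0678 in treated MCF10A arrays, and 0.597 ± 0.331 and 1.03 ± 0.0714 in untreated and treated MDA-MB-231 arrays. Replicate B of the MDA-MB-231 vehicle group stood apart at 1.09, beside 0.38 to 0.47 for the other 3 arrays of that group. Of the MCF10A markers with a value, 5 of 5 were higher in MCF10A on vehicle, for example the epithelial cadherin CDH1 at 13.06 against 4.62. Of the mesenchymal markers listed for MDA-MB-231, VIM, ZEB1 and CDH11 were higher there, whereas SPARC (5.55 against 10.92) and TGFBI (9.37 against 14.52) were lower. Of 3 markers of other cell types, the leukocyte gene PTPRC had group means of 3.75 to 4.17, the T cell gene CD3E of 6.27 to 6.47 and the endothelial gene PECAM1 of 6.96 to 8.22. No value in the data lay below 2.38, so none of these markers could be at 0. Their mean level on an array was at most 5.79 in MCF10A over both treatments. It ranged from 5.84 to 6.02 in MDA-MB-231 on vehicle and from 6.17 to 6.26 with 2DG. PECAM1 was 0.93 higher with 2DG in MDA-MB-231 (adjusted p = 2.06e-08), and the part of these markers in the results was not tested.

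On their brightest probe sets all 10 genes fell with 2DG in both lines, and each fell further in MCF10A. In MCF10A the changes ran from -2.18 (GINS3) to -4.87 (DTL) on the log2 scale, that is, to between 22.1% and 3.43% of the vehicle level. In MDA-MB-231 they ran from -0.66 (GINS3) to -2.28 (GINS2), to between 63.3% and 20.6%. The median change over the 10 genes was -3.04 in MCF10A and -1.11 in MDA-MB-231, beside 0.02 and 0.03 over all genes. Quantile normalization makes the arrays alike in their spread of values, so medians over all genes largely reflect the processing. A shift shared by all genes may not show. Calls are two-sided limma tests with a Benjamini-Hochberg adjusted p, over all 19775 genes, below 0.05. Calls were frequent: 25.2% of all genes were called lower and 29.0% higher in MCF10A, and 25.4% and 25.5% in MDA-MB-231. The 10 of 10 called lower in each line is to be read against those shares. Values of treated and untreated arrays did not overlap for any of the 10 genes in either line, which was also so for 51.6% and 46.9% of all genes. In RNA from whole cultures, fewer cells in a cell cycle phase and less RNA per cell cannot be told apart.

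**Figure D1:**
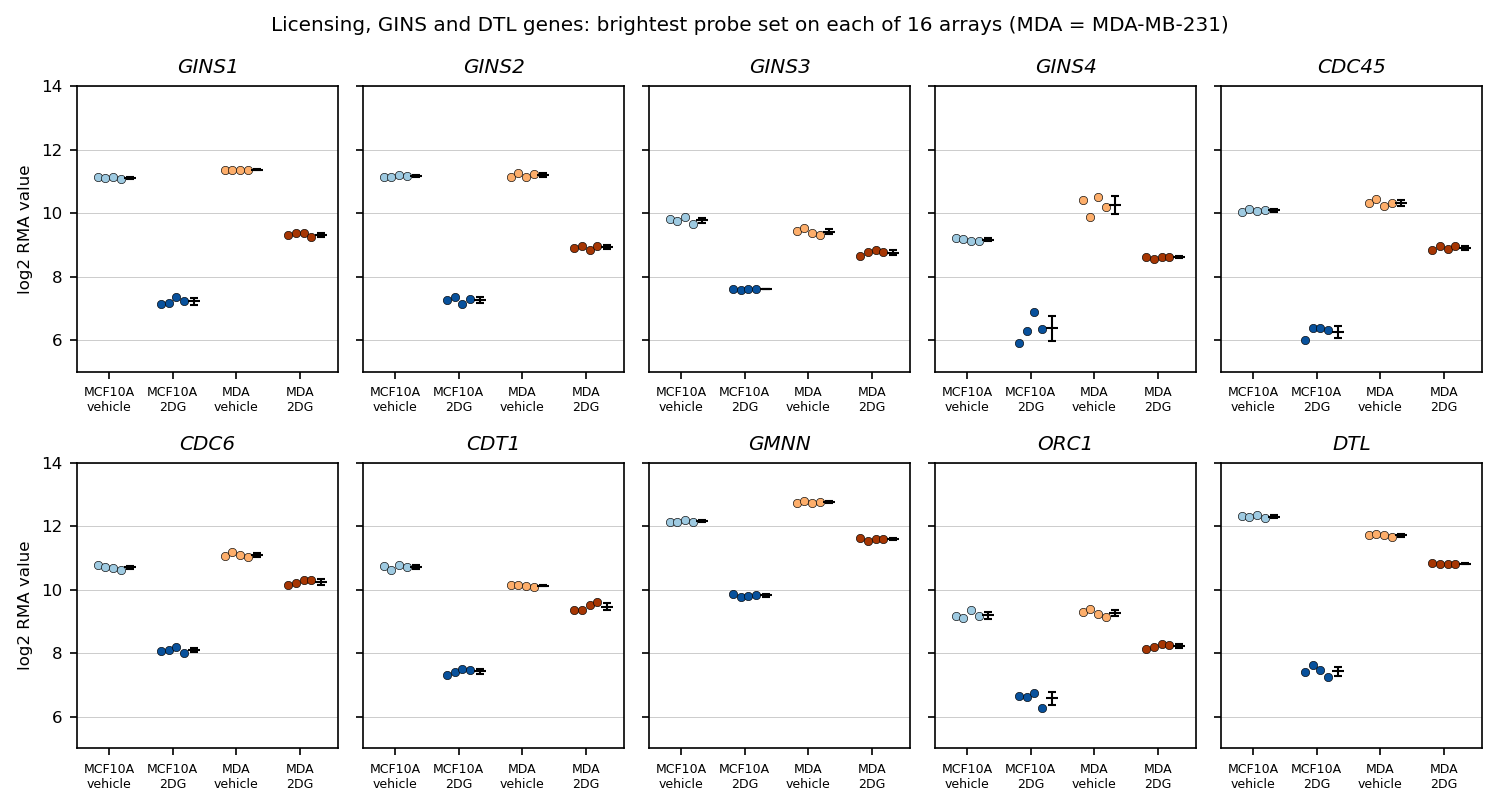
Log2 RMA value of the brightest probe set of each of the 10 genes (y axis) on the 16 arrays, by group (x axis; MDA is MDA-MB-231). Points are arrays A to D from left to right, the horizontal bar is the mean and the error bar the SD over 4 arrays. In every panel the 2DG points lie below the vehicle points of the same line, and the MCF10A 2DG points are the lowest of the 4 groups.

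DTL showed the largest fall of the 10 genes in MCF10A. Its vehicle arrays A to D read 12.31, 12.28, 12.34 and 12.26, and its 2DG arrays 7.39, 7.61, 7.46 and 7.26. The change was -4.87 ± 0.0554 (SE), a 29.2-fold fall with adjusted p = 8.5e-19, and ranked 7 from the lowest of 19775 genes. In MDA-MB-231 the vehicle arrays read 11.71, 11.75, 11.71 and 11.65 and the 2DG arrays 10.83, 10.81, 10.8 and 10.81. The treated MDA-MB-231 arrays thus all stayed above 10.7 while every treated MCF10A array lay below 7.7. The MDA-MB-231 change was -0.89 ± 0.0554, a 1.86-fold fall with adjusted p = 5.68e-10, and 18.3% of the MCF10A change on the log2 scale.

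Among the loading factors, CDT1 came next. On vehicle the MCF10A arrays read 10.73, 10.62, 10.76 and 10.71, and with 2DG 7.31, 7.4, 7.5 and 7.48. The RNA of CDT1, whose protein DTL marks for destruction, thus fell 9.73-fold in MCF10A (-3.28 ± 0.0558, adjusted p = 5.03e-17). MDA-MB-231 arrays read 10.14, 10.14, 10.12 and 10.09 on vehicle and 9.37, 9.36, 9.5 and 9.6 with 2DG. The fall there was 1.59-fold (-0.67 ± 0.0558, adjusted p = 2.44e-08), 20.3% of that in MCF10A. CDT1 and DTL thus had the smallest MDA-MB-231 changes relative to MCF10A of the 10 genes.

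CDC6, the ATPase that joins ORC at the origin, read 10.76, 10.7, 10.69 and 10.63 on MCF10A vehicle arrays and 8.08, 8.11, 8.18 and 8.01 with 2DG. On MDA-MB-231 arrays it read 11.05, 11.18, 11.1 and 11.01 on vehicle and 10.13, 10.21, 10.3 and 10.3 with 2DG. The groups were well separated in each line. CDC6 changed by -2.60 ± 0.0513 (adjusted p = 2.77e-16) in MCF10A and by -0.85 ± 0.0513 (adjusted p = 3.94e-10) in MDA-MB-231. ORC1 read 9.18, 9.09, 9.34 and 9.16 on MCF10A vehicle arrays and 6.66, 6.62, 6.74 and 6.28 with 2DG. On MDA-MB-231 arrays it read 9.29, 9.38, 9.23 and 9.13 on vehicle and 8.13, 8.2, 8.27 and 8.24 with 2DG. Vehicle values of ORC1 overlapped between the lines and treated values did not. ORC1 changed by -2.62 ± 0.0853 (adjusted p = 1.18e-13) in MCF10A and by -1.05 ± 0.0853 (adjusted p = 1.7e-08) in MDA-MB-231.

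Geminin, the inhibitor of CDT1, fell as well. GMNN read 12.14, 12.13, 12.19 and 12.13 on MCF10A vehicle arrays and 9.86, 9.77, 9.8 and 9.82 with 2DG. Its MDA-MB-231 arrays read 12.71, 12.78, 12.74 and 12.77 on vehicle and 11.61, 11.54, 11.6 and 11.58 with 2DG. The treated MCF10A and treated MDA-MB-231 arrays lay over 1.6 log2 units apart. GMNN had the smallest SE of the 10 genes, 0.0329, with changes of -2.34 (adjusted p = 5.76e-18) and -1.17 (adjusted p = 4.66e-14). The MDA-MB-231 change was 50% of the MCF10A change.

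CDT1 and its inhibitor did not change by equal amounts. The within-array log2 difference of CDT1 minus GMNN was -1.44 ± 0.0457 (SD, n = 4) on MCF10A vehicle arrays and -2.39 ± 0.11 with 2DG. On MDA-MB-231 arrays this difference stood at -2.63 ± 0.0457 on vehicle and at -2.13 ± 0.112 with 2DG. With these probe sets CDT1 therefore fell more than GMNN in MCF10A and less than GMNN in MDA-MB-231, and the arrays of each line did not overlap. This rests on the choice of probe set: the other CDT1 probe set, 209832_s_at, changed by -1.70 in MCF10A and -0.40 in MDA-MB-231, which is less than GMNN in both lines. Such a difference shows unequal change only, since levels of different probe sets are not comparable.

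Among the helicase activators, CDC45, GINS1 and GINS2 fell by similar amounts in MCF10A. CDC45 read 10.03, 10.14, 10.06 and 10.1 on MCF10A vehicle arrays and 5.99, 6.38, 6.37 and 6.31 with 2DG. MDA-MB-231 arrays gave 10.32, 10.43, 10.22 and 10.32 on vehicle and 8.84, 8.97, 8.87 and 8.95 with 2DG for this gene. The treated MCF10A values lay at the level of the array medians. CDC45 changed by -3.82 ± 0.0732 (14.1-fold, adjusted p = 1.99e-16) in MCF10A and by -1.42 ± 0.0732 (2.67-fold, adjusted p = 5.76e-11) in MDA-MB-231.

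GINS1 read 11.15, 11.09, 11.12 and 11.06 on MCF10A vehicle arrays and 7.13, 7.16, 7.36 and 7.24 with 2DG. On MDA-MB-231 arrays it read 11.36, 11.37, 11.37 and 11.35 on vehicle and 9.31, 9.37, 9.37 and 9.24 with 2DG. GINS1 fell 14.7-fold in MCF10A (-3.88 ± 0.0474, adjusted p = 1.74e-18) and 4.11-fold in MDA-MB-231 (-2.04 ± 0.0474, adjusted p = 7.17e-15). GINS2 read 11.13, 11.13, 11.2 and 11.18 on MCF10A vehicle arrays and 7.25, 7.35, 7.15 and 7.3 with 2DG. Its MDA-MB-231 arrays read 11.14, 11.27, 11.15 and 11.23 on vehicle and 8.91, 8.96, 8.84 and 8.97 with 2DG. GINS2 changed by -3.90 ± 0.0474 (14.9-fold, adjusted p = 1.74e-18) and by -2.28 ± 0.0474 (4.85-fold, adjusted p = 2.39e-15). On this probe set the MDA-MB-231 change was the largest of the 10 genes and ranked 29 from the lowest of all genes in that line, but it was -1.33 with the mean of all GINS2 probe sets, less than that of GINS1.

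GINS3 and GINS4 fell less than GINS1 and GINS2 in each line on the brightest probe sets. GINS3 read 9.8, 9.76, 9.86 and 9.67 on MCF10A vehicle arrays and 7.6, 7.59, 7.6 and 7.6 with 2DG. On MDA-MB-231 arrays it read 9.43, 9.52, 9.38 and 9.32, and 8.65, 8.76, 8.84 and 8.76 with 2DG. The 4 treated MCF10A arrays were within 0.01 of each other, the tightest group among the brightest probe sets of the 10 genes. GINS3 changed by -2.18 ± 0.051 (adjusted p = 2.19e-15) in MCF10A and by -0.66 ± 0.051 (adjusted p = 8.9e-09) in MDA-MB-231. GINS4 read 9.22, 9.19, 9.12 and 9.13 on MCF10A vehicle arrays and 5.92, 6.3, 6.88 and 6.36 with 2DG. Its MDA-MB-231 arrays read 10.4, 9.88, 10.51 and 10.19 on vehicle and 8.62, 8.56, 8.62 and 8.61 with 2DG. GINS4 was the most variable of the 10, with an SE of 0.155, and 2 of its 4 groups spread over more than 0.6. It changed by -2.80 ± 0.155 (adjusted p = 9.28e-11) in MCF10A and by -1.64 ± 0.155 (adjusted p = 1.03e-07) in MDA-MB-231. On the brightest probe sets GINS3 thus fell less than GINS1 and GINS2 in each line. The within-array difference of GINS2 minus GINS3 was 1.39 ± 0.0834 (SD, n = 4) and -0.34 ± 0.0889 in MCF10A without and with 2DG, and 1.79 ± 0.087 and 0.17 ± 0.115 in MDA-MB-231. In MCF10A this order rests on the probe set of GINS2: with the mean of all its probe sets GINS2 changed by -1.83, less than GINS3.

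**Figure D2:**
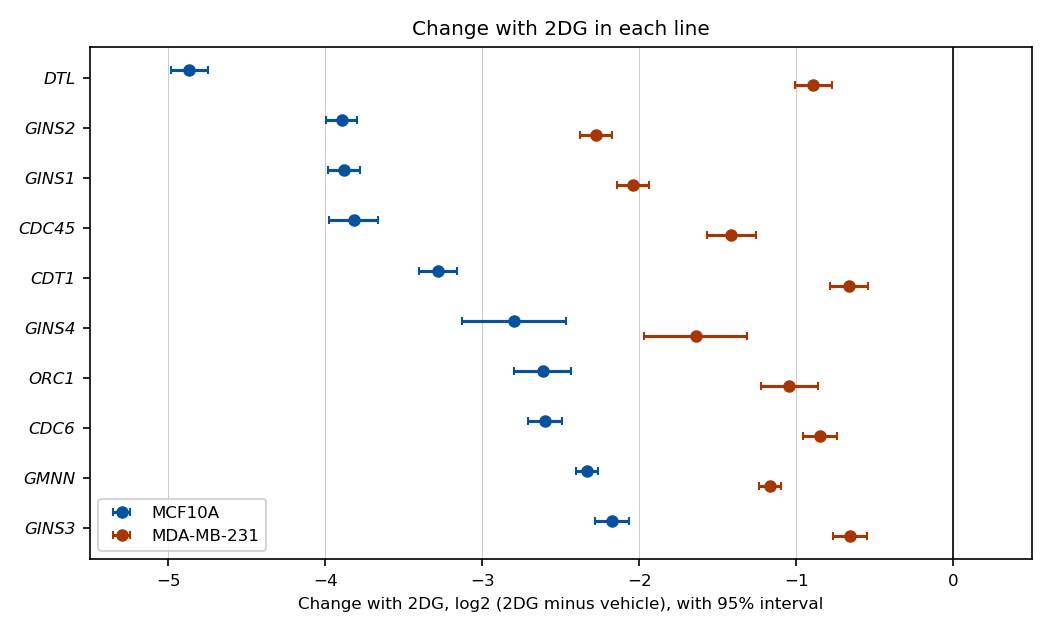
Change with 2DG (x axis, log2 value with 2DG minus vehicle) of each of the 10 genes (y axis, ordered by the MCF10A change), with the 95% confidence interval from limma. The MCF10A point lies left of the MDA-MB-231 point for every gene, by the widest margin for DTL (-4.87 against -0.89).

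On the brightest probe sets the order of the changes differed between the lines. In MCF10A the order ran from DTL through GINS2, GINS1 and CDC45 to CDT1, then GINS4, ORC1 and CDC6, then GMNN and GINS3. The 95% intervals of GINS2, GINS1 and CDC45 overlapped, as did those of GINS4, ORC1 and CDC6 and those of GMNN and GINS3, while the interval of DTL (-4.99 to -4.75) and that of CDT1 (-3.40 to -3.16) overlapped no other. In MDA-MB-231 the order ran from GINS2 through GINS1, GINS4 and CDC45 to GMNN, ORC1, DTL and CDC6, and ended with CDT1 and GINS3. There the interval of GINS2 (-2.38 to -2.18) stood alone, and that of DTL (-1.01 to -0.77) overlapped those of ORC1, CDC6 and CDT1. DTL was thus first of 10 in MCF10A and among the smaller changes in MDA-MB-231.

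The difference of the responses was tested directly, as the MDA-MB-231 change minus the MCF10A change. All 10 differences were positive and called, with a median of 1.69 beside 0.01 over all genes. Of all genes 22.3% were called higher in this comparison and 23.6% lower. DTL had the largest difference, 3.98 ± 0.0784 (SE; adjusted p = 5e-15), rank 9 from the highest of 19775. CDT1 followed with 2.62 ± 0.0789 (adjusted p = 2.89e-13) and CDC45 with 2.41 ± 0.103 (adjusted p = 1.59e-11). GINS1, CDC6, GINS2, ORC1 and GINS3 lay between 1.84 and 1.52. The smallest were GMNN at 1.17 ± 0.0465 (adjusted p = 6.24e-12) and GINS4 at 1.16 ± 0.219 (adjusted p = 0.000309). As shares of the MCF10A change, the MDA-MB-231 changes were 58.7% for GINS4, 58.4% for GINS2, 52.5% for GINS1, 50% for GMNN, 40% for ORC1, 37% for CDC45, 32.7% for CDC6, 30.3% for GINS3, 20.3% for CDT1 and 18.3% for DTL. On the brightest probe sets the lines therefore differed in how far each gene fell, and not in the direction. For GINS2 the difference was not called on its other probe sets.

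On vehicle the genes differed between the lines in both directions. Of the 10 genes 5 were higher in MDA-MB-231, 3 lower and 2 not called, with a median difference of 0.15 beside 0 over all genes. Over all genes 29.2% were called higher and 26.8% lower in MDA-MB-231 on vehicle, and the counts are to be read against those shares. On the brightest probe sets GINS4 showed the largest difference, 1.08 ± 0.155 higher in MDA-MB-231 (adjusted p = 1.21e-05). GMNN followed at 0.60 ± 0.0329 (adjusted p = 7.42e-11). The other GINS4 probe sets gave 0.98 (235029_at, adjusted p = 1.42e-06), 0.14 (1554356_at, adjusted p = 0.5) and 0.23 (240778_at, adjusted p = 0.0813). The second DTL probe set, 222680_s_at, differed by -1.105 (adjusted p = 2.55e-10), which is larger in size than GINS4. CDC6 was higher by 0.39, GINS1 by 0.26 and CDC45 by 0.24. DTL was lower in MDA-MB-231, at -0.59 ± 0.0554 (adjusted p = 7.46e-08), and CDT1 and GINS3 differed by -0.58 and -0.36. For GINS2 the difference was 0.04 (95% interval -0.06 to 0.14, adjusted p = 0.547), and for ORC1 0.07 (-0.12 to 0.25, adjusted p = 0.563). The CDT1 difference depends on the probe set: the other one, 209832_s_at, was 1.04 higher in MDA-MB-231 (adjusted p = 4.98e-06), the opposite direction. The mean of the 2 CDT1 probe sets was 0.23 higher (adjusted p = 0.0253).

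With 2DG all 10 genes were higher in MDA-MB-231 on their brightest probe sets. The groups did not overlap there for any of them, as for 56.3% of all genes. GINS2 was not called on its other probe sets, at -0.045 (1557595_at, adjusted p = 0.656) and -0.03 (243136_at, adjusted p = 0.894). Over all 19 probe sets of the 10 genes 17 were called higher, against 27% of all probe sets. Of all genes 30.7% were called higher and 28.8% lower in that comparison. The largest gap was that of DTL, 3.38 ± 0.0554, or 10.4-fold (adjusted p = 1.21e-17). CDC45 was 2.65 ± 0.0732 higher (6.25-fold, adjusted p = 7.55e-15) and GINS4 2.24 ± 0.155 higher (4.72-fold, adjusted p = 1.21e-09). The other 7 were higher by 1.16 (GINS3) to 2.14 (CDC6). This comparison shares its arrays with the others and is no separate support for them.

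The other probe sets of the genes gave negative changes with 2DG in both lines, of different sizes and not all called. There were 9, on GINS2, GINS3, GINS4, CDC6, CDT1 and DTL. Over all 19 probe sets, 18 were called lower in MCF10A and 17 in MDA-MB-231, where 21.4% and 20.9% of the 54613 probe sets that are not controls were called lower, in a fit over all of them. The difference of the responses was called positive for 15 of 19, against 18.1% of all probe sets. The second DTL probe set, 222680_s_at, changed by -5.32 ± 0.0666 in MCF10A and -0.57 ± 0.0666 in MDA-MB-231, so the gap between the lines was larger there (4.75 ± 0.0942, adjusted p = 5.51e-15). CDC6 gave -2.58 and -0.92 on 203968_s_at, and GINS3 -2.62 and -0.72 on 45633_at. The CDC6 values are close to those above, while the MCF10A change of GINS3 was larger than on its brightest probe set, with intervals that did not overlap (-2.75 to -2.48 against -2.29 to -2.06). The brightest CDT1 probe set, 228868_x_at, carries a name ending that marks a shared probe set. For CDT1, 209832_s_at gave smaller changes than that one, -1.70 ± 0.136 (adjusted p = 1.07e-08) and -0.40 ± 0.136 (adjusted p = 0.0244). On that probe set MDA-MB-231 vehicle replicate B, the array with the high actin difference, read 9.24 beside 8.42 to 8.57 for the others.

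The sizes for GINS2 and GINS4, like that for CDT1, depended on the probe set. For GINS2, 243136_at changed by -1.47 in MCF10A and -1.49 in MDA-MB-231, with a difference of -0.02 (95% interval -0.48 to 0.43, adjusted p = 0.955). The probe set 1557595_at of GINS2 read 7.5 and 7.37 in MCF10A without and with 2DG, a difference of -0.13 that was not called (adjusted p = 0.189), and changed by -0.21 in MDA-MB-231 (adjusted p = 0.0281). The line difference of GINS2 was thus seen on 1 of its 3 probe sets, the brightest. For GINS4, 235029_at changed by -1.5 and -1.32, with a difference of 0.18 (95% interval -0.17 to 0.53, adjusted p = 0.465). On 1554356_at the values were -1.33 in MCF10A and -0.19 in MDA-MB-231 (adjusted p = 0.34, not called), with a difference of 1.14 (adjusted p = 0.000279). On 240778_at they were -0.31 (adjusted p = 0.018) and -0.07 (adjusted p = 0.663, not called). The mean of all probe sets of a gene gave changes of -1.83 and -1.33 for GINS2 and of -1.49 and -0.80 for GINS4, all called. Probe sets whose names end in _s_at, _x_at or _a_at are called shared here, as their probes may match more than 1 transcript. Without them GINS2 was left with 1557595_at and was no longer called in MCF10A (adjusted p = 0.174).

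**Figure D3:**
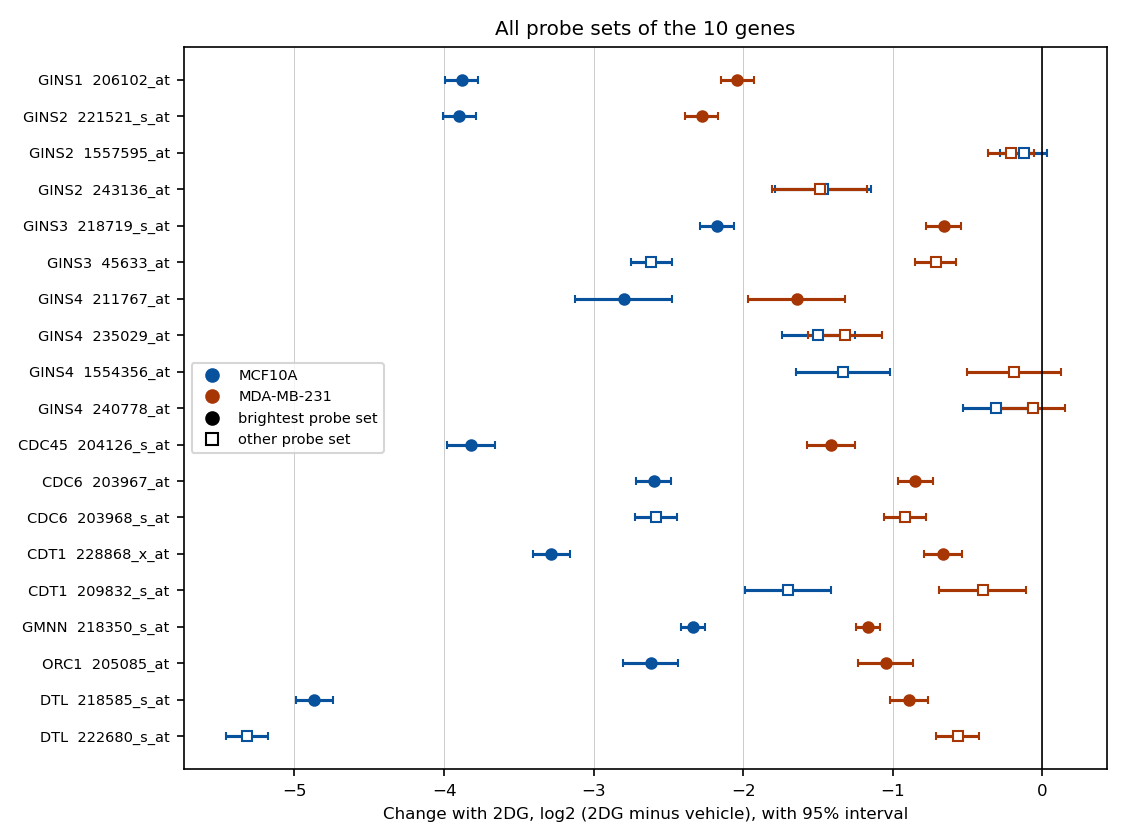
Change with 2DG (x axis, log2, with the 95% interval from limma over all probe sets) for each of the 19 probe sets of the 10 genes (y axis). Filled circles are the brightest probe set of a gene and open squares the others. The GINS2 and GINS4 probe sets spread widely, from -3.90 to -0.13 for GINS2 in MCF10A, while those of CDC6 lie close together.

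Other genes of the pathway were taken from 6 lists of 63 genes, 62 of them measured. In MCF10A 49 fell, 9 rose and 4 were not called, with a median change of -1.36, and in MDA-MB-231 48 fell, 9 rose and 5 were not called, with a median of -0.86. The response of 42 was higher (less negative) in MDA-MB-231, that of 4 lower, and 16 were not called, with a median difference of 0.46. Over all genes 25.2% were called lower and 29.0% higher in MCF10A, and 25.4% and 25.5% in MDA-MB-231. For the difference the shares were 22.3% higher and 23.6% lower. The counts per list below are to be read against these shares. Among the other origin recognition factors, 5 of 6 fell in MCF10A and 4 of 6 in MDA-MB-231. ORC6, the smallest ORC subunit, changed by -3.23 and -0.53 in MCF10A and MDA-MB-231, and ORC5 by -1.28 and -0.86. KAT7, a histone acetyltransferase that acts at origins, rose by 0.60 and 0.23. ORC1 and ORC6 thus fell the most of the ORC genes measured in MCF10A, where ORC2, ORC3 and ORC4 changed by -0.52, -0.72 and -0.15. In MDA-MB-231 ORC3 changed by -0.76, and ORC4 rose by 0.22 (adjusted p = 1.22e-05). All 6 MCM helicase subunits, MCM2 to MCM7, and the MCM-binding protein MCMBP fell in both lines, with medians over the 7 genes of -2.28 and -1.47. MCMBP changed least in each line, by -1.08 and -0.18. MCM7 fell by 3.26 in MCF10A, and MCM6 changed by -3.04 and -1.87. MCM3 changed by -1.655 in MDA-MB-231.

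Of the 10 origin firing factors, 9 fell in MCF10A and 10 in MDA-MB-231. The shares of all genes called lower were 25.2% and 25.4%, and those called higher 29.0% and 25.5%. MCM10, which helps activate the CMG helicase, changed by -6.90 in MCF10A, from 10.75 to 3.85, and by -1.74 in MDA-MB-231. WDHD1, a fork protein that links CMG to polymerase alpha, changed by -3.29 and -1.12. TOPBP1 changed by -0.05 in MCF10A (adjusted p = 0.192). Of 23 polymerase, clamp and fork genes, 19 fell and 3 rose in MCF10A, and 20 fell and 3 rose in MDA-MB-231. POLE2, a subunit of polymerase epsilon, changed by -5.34 and -2.27, and CLSPN, the checkpoint mediator claspin, changed by -3.47 and -1.30. POLA1, the catalytic subunit of polymerase alpha, fell by 1.85 in MDA-MB-231. POLD4 rose by 0.55 in MCF10A. POLE4 rose by 0.59 in MDA-MB-231, which turned to -0.05 with the mean of all its probe sets. RFC1, the large clamp loader subunit, rose by 0.52 in MDA-MB-231 and by 0.14 in MCF10A. Neither RFC1 rise was called without shared probe sets (adjusted p = 0.386 and 0.409).

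Of the 6 genes of the CRL4 ligase core and DTL's other substrates, 3 rose, 2 fell and 1 was not called in MCF10A, and 2 rose, 1 fell and 3 were not called in MDA-MB-231, with medians of 0.09 and 0.06. Of all genes 29.0% were called higher and 25.2% lower in MCF10A, and 25.5% and 25.4% in MDA-MB-231. DDB1, the adaptor that holds DTL in the ligase, changed by 0.24 in MCF10A and 0.03 in MDA-MB-231 (adjusted p = 0.559). RBX1, the RING subunit, fell by 0.48 in MCF10A. CUL4B rose by 0.60 in MCF10A and fell by 0.26 in MDA-MB-231, but the latter was 0.10 with the mean of its probe sets. CUL4A rose by 0.25 in MDA-MB-231, but changed by -0.30 without shared probe sets (adjusted p = 0.00131). CDKN1A, which encodes the DTL substrate p21, an inhibitor of cyclin-dependent kinases, rose by 1.01 and 0.90, with a line difference of -0.11 that was not called (adjusted p = 0.247). KMT5A fell by 0.16 in MCF10A.

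Of 10 factors of other routes that control the turnover of CDT1, CDC6 and geminin, 7 fell and 2 rose in MCF10A. In MDA-MB-231 6 fell and 2 rose. The shares of all genes called lower were 25.2% and 25.4%, and those called higher 29.0% and 25.5%. CDC20, an activator of the anaphase-promoting complex, changed by -4.02 in MCF10A, and FBXO5, which encodes its inhibitor EMI1, by -2.66 and -1.63. SKP2, the F-box protein of the SCF ligase that also recognises CDT1, changed by -2.32 and -2.28, and its line difference was 0.05 (adjusted p = 0.579). For SKP2 the 95% interval of this difference was -0.08 to 0.17, beside 3.81 to 4.14 for DTL. FBXO31, an F-box protein, rose by 0.67 in MCF10A and 0.56 in MDA-MB-231, the former turning to -0.10 without shared probe sets. HUWE1, a ligase for CDC6, rose by 0.11 and 0.13, values that lost their call under several alternatives and turned to -0.61 in MCF10A without shared probe sets.

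**Figure D4:**
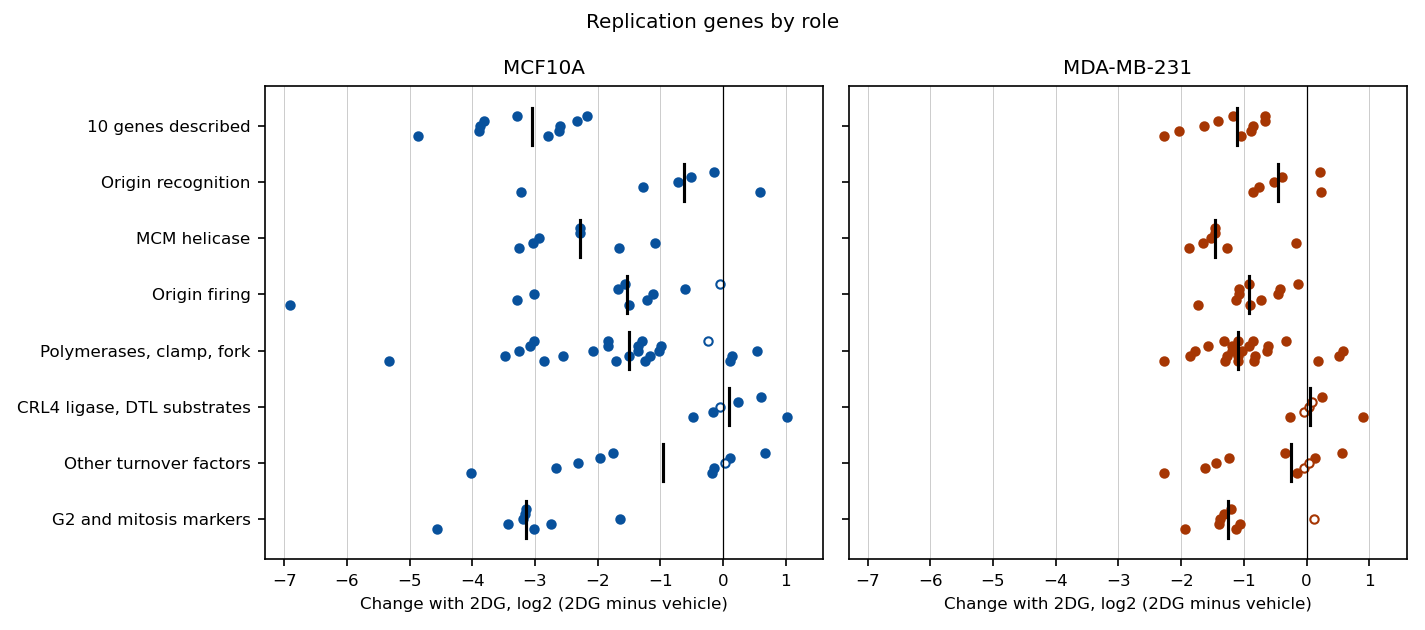
Change with 2DG (x axis, log2 value with 2DG minus vehicle) of the 10 genes, of the 6 lists of other pathway genes and of 8 G2 and mitosis markers (y axis), in MCF10A (left) and MDA-MB-231 (right). Each point is a gene, open where it was not called, and the vertical bar is the median. The medians of the 10 genes (-3.04 and -1.11) lie near those of the G2 and mitosis markers (-3.15 and -1.26), and those of the CRL4 genes lie near 0.

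Markers of cells in G2 and mitosis moved with the 10 genes. In MCF10A 8 of 8 fell, with a median of -3.15, and in MDA-MB-231 7 of 8 fell, with a median of -1.26. The shares of all genes called lower were 25.2% and 25.4%. The mean log2 level of the 8 markers on an array ranged from 11.26 to 11.34 and from 8.13 to 8.23 in MCF10A without and with 2DG, and from 11.72 to 11.76 and from 10.55 to 10.62 in MDA-MB-231. No value in the data lay below 2.38, so none of these markers could be at 0. CCNB1, encoding cyclin B1, changed by -3.14 and -1.31, and CDK1, its kinase, changed by -3.02 and -1.06. The exception was MKI67 in MDA-MB-231, at 0.12 (adjusted p = 0.161), which gave -1.47 (adjusted p = 7.09e-13) with the mean of all its probe sets and 0.25 (adjusted p = 0.0187), called higher, with the actin difference as a covariate. AURKA changed by -1.21 in MDA-MB-231, but by -0.29 without shared probe sets, which was not called (adjusted p = 0.0865). The part of cell cycle distribution in the fall of the 10 genes was not tested. The mean actin 3'/5' difference was higher with 2DG in both lines and highest in treated MDA-MB-231. With it as a covariate all 10 genes were still called lower in each line, from -2.19 to -4.87 in MCF10A and from -0.67 to -2.35 in MDA-MB-231. Without MDA-MB-231 vehicle replicate B the changes in that line ran from -0.62 (GINS3) to -2.25 (GINS2), all called.

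The genes most like each member were taken as those outside the 10 with the smallest root mean square difference between the 4 group means, after each gene's own mean over the 4 groups was subtracted. The measure rests on 4 group means and is a description. CDC6 was closest to PSMC3IP, at 0.0352 log2 units, and to LMNB2, at 0.0575. ORC1 was closest to FIRRM (0.0496) and SAPCD2 (0.0785). CDC45 lay nearest SKA1 (0.0547) and PRC1 (0.162). GMNN lay nearest IQGAP3 (0.0667), whose changes were -0.02 and 0.01 without shared probe sets, and TACC3 (0.0709). GINS1 and GINS2 shared KIF20A as the closest gene, at 0.148 and 0.105, with KIF23 (0.212) and HELLS (0.203) next. GINS3 was closest to PGAM5 (0.0998) and CHAF1A (0.101), and GINS4 to CIP2A (0.102) and SGO2 (0.121). CDT1 was closest to ORC6 (0.159) and ZGRF1 (0.191). DTL had the most distant neighbours of the 10, SHCBP1 at 0.241 and UHRF1 at 0.312. SHCBP1 changed by -4.81 in MCF10A and by -1.5 in MDA-MB-231, so its fall in MDA-MB-231 was larger than that of DTL.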

How the data were processed

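The authors deposited log2 values per probe set, made with RMA (background correction, quantile normalization and probe summary) per the submitters' processing notes. Its version and the set of arrays normalized together are not given in the sources used here. Labelling started from the 3' end of the RNA (Affymetrix IVT kit, per the labels' protocols), so values depend on RNA integrity. Of 54675 probe sets 62 were controls, 41091 had 1 gene in GEO's platform annotation, 1801 had several and were left out, and 11721 had none. Gene numbers of 41037 were found in the RefSeq table of GRCh38.p14, and 54 kept the annotation's name.

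Each of 19775 genes was represented by its brightest probe set. The model, run in R 4.3.3 with limma 3.58.1 (lmFit, eBayes), had 4 group means (16 arrays, 12 residual degrees of freedom), with no filter and Benjamini-Hochberg adjustment over all genes. Errors are SE of the fit or SD over 4 arrays. The number of arrays limits the precision. Alternatives were left-out arrays, a replicate block, other probe set rules, scalings, variance models, weights, a filter on dim genes, an actin covariate and fits on single comparisons.

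The genes, the lists and the tests were chosen with earlier results of these data known. Beside the 10 genes, the text names per list and line the 2 called genes with the largest fall and the 2 with the largest rise, and the 2 genes most like each of the 10. Other pathway genes and markers are named from the lists after their values were seen. Promoter windows came from RefSeq and were searched with Python 3.11.15.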

Additional observations from a re-analysis of the deposited data

Results flagged for a closer look

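On the brightest probe sets the response to 2DG differed between the lines for each of the 10 genes, by a test of the difference itself (limma, MDA-MB-231 change minus MCF10A change, log2). The values were 1.84 for GINS1, 1.62 for GINS2, 1.52 for GINS3, 1.16 for GINS4, 2.41 for CDC45, 1.75 for CDC6, 2.62 for CDT1, 1.17 for GMNN, 1.57 for ORC1 and 3.98 for DTL. Of all genes 22.3% were called in this direction. The difference was called on 1 of 3 probe sets of GINS2 (-0.02, adjusted p = 0.955, and -0.085, adjusted p = 0.597, on the others) and on 2 of 4 of GINS4.

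Of 40 groups of 4 arrays, 3 held an array far from the others relative to the range of its group, where chance gives about 1 in 20. GINS3 read 7.59 on MCF10A 2DG replicate B and 7.6 on the other 3 arrays. GINS4 read 8.56 on MDA-MB-231 2DG replicate B, beside 8.61 to 8.62. GMNN read 12.19 on MCF10A vehicle replicate C, beside 12.13 to 12.14. All 3 lie within 0.1 log2 units of their group.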

How the results depend on the processing

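Of 1270 values of the 10 genes under the alternatives, 1266 kept direction and side of the threshold, 1 lost its call and 3 reversed. Most of these values came from fits without 1 array, in part an array outside the comparison. The changes all came from other choices of probe set. With the mean of all probe sets 1 of 50 values reversed. Without shared probe sets 1 of 30 values lost its call and 2 reversed. Leaving out each array in turn left 10 genes called with 2DG in each line, in the difference and with 2DG between the lines, and 8 on vehicle. The replicate letters paired the samples weakly at most. Same-letter deviations correlated between 0.0401 and 0.0877 in MCF10A and between -0.0992 and 0.0194 in MDA-MB-231. MCF10A vehicle arrays A, C and D, but not B, correlated best with their own letter, and no MDA-MB-231 vehicle array did. With the replicate block 10, 10, 10, 8 and 10 genes stayed called in the 5 comparisons, and no other call changed among the 10. Without shared probe sets only 6 of the 10 genes were measured, and 5 were called in MCF10A, 6 in MDA-MB-231, 5 in the difference, 4 on vehicle and 5 with 2DG. CDC45, CDT1, GMNN and DTL had no value in that setting, so their results could not be checked by it. There GINS2 turned to -0.085 in the difference and -0.045 with 2DG between the lines. The vehicle difference of CDT1 turned to 0.23 with the mean of its probe sets. Of 3165 values of the other named genes 3127 were kept, 23 lost and 5 gained a call, and 10 reversed. Those were, with the mean of all probe sets, POLE4 (-0.0508), CUL4B (0.10) and MKI67 (-1.47) in MDA-MB-231 and HELLS on vehicle (0.093); without shared probe sets, CUL4A (-0.30) and IQGAP3 (0.0125) in MDA-MB-231 and FBXO31 (-0.10) and HUWE1 (-0.61) in MCF10A; and SAPCD2 on vehicle, -0.0107 with the actin covariate and -0.0025 to 0.0592 when arrays were left out. The cause was not tested. RMA gives no detection call, so falls to the level of the array medians may be understated.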
